A study of Canis lupus familiaris with 10 samples.

Results

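MYC encodes a transcription factor of the proto-oncogene class, and the region described here is the 4 Mb of canine chromosome 13 around it, from 24 to 28 Mb of CanFam3.1. Its members are all peaks of open chromatin called there in 10 libraries, joined into 1 region wherever peaks of any library touched or overlapped, which gave 147 regions of 59420 merged over the whole genome. Peaks were called in ATAC-seq, an assay in which a transposase inserts sequencing adapters into DNA that is not covered by nucleosomes. The libraries came from CLBL-1 and 17-71, established lines of dog lymphoma of B-cell type, each grown as a control or with 100 nM C220, a selective inhibitor of PRMT5 that the sample labels call PR220. Cells of 17-71 were collected at day 4, giving 3 libraries without the inhibitor (B1, B2 and B3) and 2 with it (B4 and B6). Cells of CLBL-1 were collected at day 2, with C2 and C3 as the 2 control libraries and C4, C5 and C6 as the 3 treated ones. Each group is therefore a single established line at a single dose and a single day, and while the study describes biological triplicates, the labels do not tie libraries to cultures, so p-values measure the spread between these libraries. The line, its collection day and any batch that goes with the line cannot be told apart. The study mentions a known duplication of MYC in CLBL-1. The copy number of chromosome 13 in the lines was not analysed here, and its effect on the calls was not tested.

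MYC drives genes of growth, ribosome synthesis and the cell cycle, and its deregulation is a hallmark of many B-cell lymphomas. In mammals the gene sits in a stretch of the genome with few other genes, and distal enhancers on both sides, some of them far away, are used by different cell types to control it. PRMT5 places symmetric dimethyl marks on arginines of histones and of many other proteins. Some of its histone marks are linked to gene silencing, and another to open chromatin and gene expression. Regions are given by position alone, since gene models on CanFam3.1 were not used here. In the RefSeq annotation of another dog assembly, UU_Cfam_GSD_1.0, the order along chromosome 13 was TRIB1, LOC475097, LRATD2, MYC, LOC100856037, GSDMC, CYRIB, ASAP1 and ADCY8, which names the neighbours without placing the ends of the 4 Mb. Positions lower than MYC are called left below and higher ones right, and the distance of a region is measured from its nearer edge to the nearer edge of the MYC region, the merged region chr13:25204781-25208119 that is taken to mark the gene.

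The 147 regions were between 296 and 4109 bp long, with a median of 1144 bp, and 7 were 3 kb or longer. Calls in both lines were found at 41 regions (27.9%), in 17-71 alone at 62 (42.2%) and in CLBL-1 alone at 44 (29.9%). Over the genome the same shares were 36.6, 45.4 and 18%, and on the rest of chromosome 13 they were 30.5, 53.1 and 16.3%. A call in a single library was the only one at 20 of the regions. As each library has its own list of calls and no read depth, a missing call means only that no peak passed the caller's threshold, and not that the chromatin was closed.

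The lists themselves differed in length. They held 44378, 33358 and 30943 peaks in the 17-71 controls B1, B2 and B3, and 22076 and 27646 in B4 and B6, the pair treated with C220. The CLBL-1 lists held 23822 and 23318 peaks in the controls C2 and C3, and 27026, 27247 and 23082 in the C220 libraries C4, C5 and C6. In 17-71 both treated lists were thus shorter than every control list, B4 being the shortest of the 10, while in CLBL-1 the groups overlapped. The domain held 97, 81 and 66 of these peaks in the 17-71 controls and 61 and 76 with C220, against 70 and 66 in the CLBL-1 controls and 76, 69 and 65 with C220.

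The first question was what the treatment did at the region taken to mark MYC. The MYC region was called in 4 libraries, all of 17-71. The fold enrichment over the local background, as the peak caller gave it for the whole peak, was 3.4, 3.06 and 3.38 in the controls B1, B2 and B3, and 2.87 in the C220 library B6, and neither B4 nor any CLBL-1 library had a call. Ranked by −log10 p among the peaks of its own list, the call stood at percentile 83.9, 82.7 and 87.3 in the controls and at percentile 46.8 in B6, where the −log10 p was 8.10 against 21.5 to 27.7 in the controls. The called stretch measured 1625, 3282 and 1698 bp in the controls and 1449 bp in B6. The treated call was below all 3 controls in fold, rank and length, but the fold order depends on the scale. With the median log2 fold of each library removed, the values were -0.55, -0.40 and -0.23 in the controls and -0.45 in B6, inside their range. With 1 treated value there is no test, the ranks come from lists of unequal length, and B4, the library with no call, also had the shortest list.

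The regions on either side of MYC did not share one pattern. On the left, 2.754 kb away, chr13:25197988-25202027 (4040 bp) was called in all 10 libraries. Its fold was 3.04, 3.21 and 3.41 in the 17-71 controls, 2.99 and 2.84 in the 17-71 C220 libraries, 3.1 and 2.81 in the CLBL-1 controls, and 2.78, 2.72 and 3.17 in the CLBL-1 C220 libraries. The CLBL-1 groups overlapped. The 17-71 treated values lay below the controls in fold, but between them once centred per library, with a log2 difference of -0.06 ± 0.143 (SE, adjusted p = 0.885 by limma). On the right, 4.871 kb away, chr13:25212990-25214301 repeated the calls of the MYC region, with a fold of 4.23, 3.56 and 3.76 in the 17-71 controls, 3.75 in B6, and no call in B4 or CLBL-1. Next to it, 10.807 kb from MYC, chr13:25218926-25220714 was called in all 5 libraries of 17-71 (4.04, 3.76 and 3.65 in controls, 3.27 in B4 and 4.45 in B6) and in none of CLBL-1. From 17.307 to 43.564 kb the next 4 regions were called in both lines, 3 of them in all 10 libraries and the last in all but B4. Within 50 kb, the regions without a call in CLBL-1 were therefore the MYC region and its next 2 neighbours on the right. Which of the called regions hold the promoter or the body of MYC was not determined. The missing calls thus do not show that the gene lacked open chromatin in CLBL-1.

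**Figure D1:**
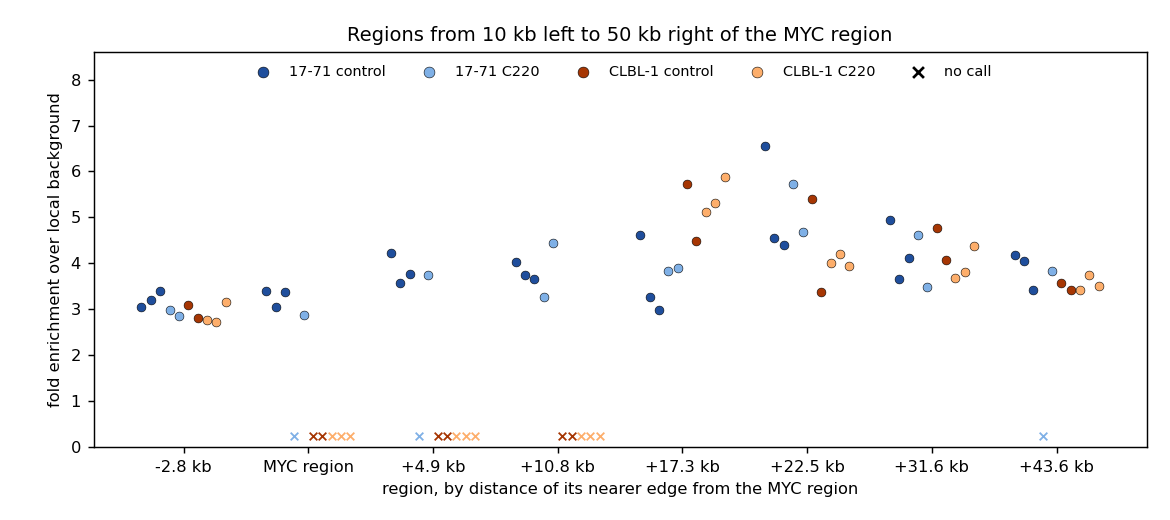
Fold enrichment over local background (y axis) of the 8 regions from 10 kb left to 50 kb right of the MYC region (x axis, distance from the MYC region), 1 point per library, with a cross near the axis for a library with no call. CLBL-1 has crosses in all 5 libraries at the MYC region and the next 2 regions on its right, and points at the other 5.

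The 10 calls of the MYC region, present in B1, B2, B3 and B6 and absent elsewhere, were shared by 3 other regions of the domain. They were chr13:24214114-24214830 on the left, the neighbour at 4.871 kb, and chr13:27236077-27237541 on the right at 2028 kb. These 4 are 2.72% of the domain, against 4.44% of all merged regions with that pattern in the genome. In the first of them the fold was 5.03, 3.35 and 3.13 in the controls and 3.47 in B6, and in the last it was 4.12, 3.86 and 3.63 in the controls and 3.22 in B6. Within the domain, B4 was also the library that broke the 17-71 pattern most often. At 9 regions it was the only 17-71 library without a call, 5 of which CLBL-1 had, while B3 was the only one missing at 4, B2 and B6 at 1 each, and B1 at none. B4 had the shortest list, and the same counts over the genome are not given here. They are therefore not shown to be particular to the domain.

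A loss, defined as a call in every control and no C220 library of a line, was found at 4 regions in 17-71, which is 2.72% of the domain against 5.69% of the genome. No region was lost in CLBL-1, where 0.273% of the genome was. The 4 were chr13:24487312-24488083, chr13:27368110-27369077, chr13:27510548-27511534 and chr13:27668065-27668958, all between 772 and 987 bp long and none of them called in CLBL-1. In the controls B1, B2 and B3 the fold was 3.28, 2.65 and 3.0 at the first and 4.21, 2.52 and 2.75 at the second. It was 3.61, 2.80 and 2.54 at the third and 3.29, 2.52 and 2.65 at the fourth. None of the 4 had a fold above 4.21. The nearest of these regions lay 717 kb from MYC. The MYC region itself, with its 1 treated call, was not among the losses, but it had calls in 3 controls and 0 C220 libraries when peaks of −log10 p 10 or more alone were kept. With lists of 20000 peaks each it kept 3 control calls and 1 treated call, and without B6 the MYC region and its neighbour at 4.871 kb would count as lost too.

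Gains, with a call in every C220 library and no control of a line, were found at 1 region in each line, 0.68% of the domain, against 0.173% of the genome in 17-71 and 0.936% in CLBL-1. In 17-71 it was chr13:26746731-26747205, 475 bp long and 1539 kb right of MYC, with a fold of 2.66 in B4 and 2.46 in B6. In CLBL-1 it was chr13:26204768-26205603, 997 kb right of MYC, with a fold of 3.25, 2.75 and 3.26 in C4, C5 and C6. Neither was called in the other line. The counts depend on the length of the lists and rest on few libraries. With the 20000 peaks of largest −log10 p of each library, 17-71 had 0 losses and 4 gains, the opposite order, and CLBL-1 2 losses and 0 gains. Without B3, or without B6, the losses in 17-71 numbered 13, and without B1, B4 or B6 the gains there numbered 3. In CLBL-1 the gains numbered 4 without C2 and 2 without C3 or C5, and the losses 1 to 2 without C2, C3, C4 or C5. The shares of the genome under these changes are not given here, so the shifts are not shown to be particular to the domain.

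At regions with a call in every library of a line, the height of the peaks can be compared. In 17-71, 48 domain regions could be tested with limma on log2 fold, centred per library, and none differed between C220 and control at an adjusted p under 0.05, as was so for all 17601 regions tested in the genome (0.0%). At an unadjusted p under 0.05 there were 7 of the 48 (14.6%), against 14.7% of the genome. The smallest adjusted p was 0.218, at chr13:27045716-27048532, where the log2 difference was 0.41 ± 0.127 (SE). Its fold was 3.96, 3.47 and 2.95 in the controls, 4.89 in B4 and 3.78 in B6, with a called length of 879 bp in B4 and 2393 to 2732 bp in the other 17-71 libraries. In fold, B6 lay between the controls and B4, with the shortest peak, above them, while on the centred scale of the test both treated values (0.22 and -0.05) were above the controls (-0.33, -0.22 and -0.43). The median log2 difference over the 48 regions was 0.08, and over all regions tested it was 0.03.

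In CLBL-1, 53 domain regions were tested in the same way and none passed, nor did any of 18339 in the genome (0.0%). Here 2 of 53 had an unadjusted p under 0.05 (3.77%, against 5.93% of the genome). The smallest adjusted p by limma, 0.797, belonged to chr13:27271000-27273563, named after its values were seen, with a fold of 3.68 and 3.80 in the controls and 2.99, 2.53 and 2.91 with C220. The groups at that region did not overlap, and the log2 difference was -0.42 ± 0.0991 (SE). The treatment effect itself was compared between the lines at the 19 regions called in all 10 libraries. No region passed by limma, against 4 in the genome (0.0436%), and 4 of the 19 had an unadjusted p under 0.05 (21.1%, against 12%). The smallest adjusted p was 0.303. These tests leave out the MYC region, which had no call in B4.

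The domain can also be weighed against the length of each list. It held 2.19, 2.43 and 2.13 peaks per 1000 of the list in the 17-71 controls and 2.76 and 2.75 with C220, and 2.94 and 2.83 in the CLBL-1 controls and 2.81, 2.53 and 2.82 with C220. In 17-71 the 2 treated shares were above the 3 controls, with means of 2.76 ± 0.0100 (SD, n = 2) and 2.25 ± 0.157 (SD, n = 3). The difference of 0.507 had a two-sided exact permutation p of 0.1, which is the smallest that 3 libraries against 2 can give. In CLBL-1 the means were 2.72 ± 0.163 (SD, n = 3) with C220 and 2.88 ± 0.0764 (SD, n = 2) in controls, a difference of -0.164 with an exact permutation p of 0.4. The difference between these treatment effects was 0.671, with an exact permutation p of 0.03 over 100 arrangements, and 0.111 after Benjamini-Hochberg adjustment over the 4 comparisons of the share. The treated 17-71 share was higher although the treated domain counts were not. The counts of 61 and 76 overlapped the control counts of 66 to 97, and the shorter treated lists moved with the higher share. With lists of 20000 peaks each the difference in 17-71 was 0.258 (exact permutation p of 0.1). For peaks of −log10 p 10 or more it was 0.173 (exact permutation p of 0.5). At 4-fold or more it was 0.354 (exact permutation p of 0.3), by covered bases 0.365 (exact permutation p of 0.3). Within 1 Mb of MYC it was 0.0936 (exact permutation p of 0.4). Per 1000 peaks of the rest of chromosome 13 it was 12.3 (exact permutation p of 0.2). The difference of the effects was 0.492 with lists of 20000 peaks each (exact permutation p of 0.04). By covered bases per 1000 covered bases it was 0.578 (exact permutation p of 0.04). Its p was above 0.05 for peaks of −log10 p 10 or more (0.295, exact permutation p of 0.42), for peaks of at least 4-fold (0.215, exact permutation p of 0.57), within 1 Mb of MYC (0.137, exact permutation p of 0.31) and per 1000 peaks of the rest of chromosome 13 (14.6, exact permutation p of 0.13).

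**Figure D2:**
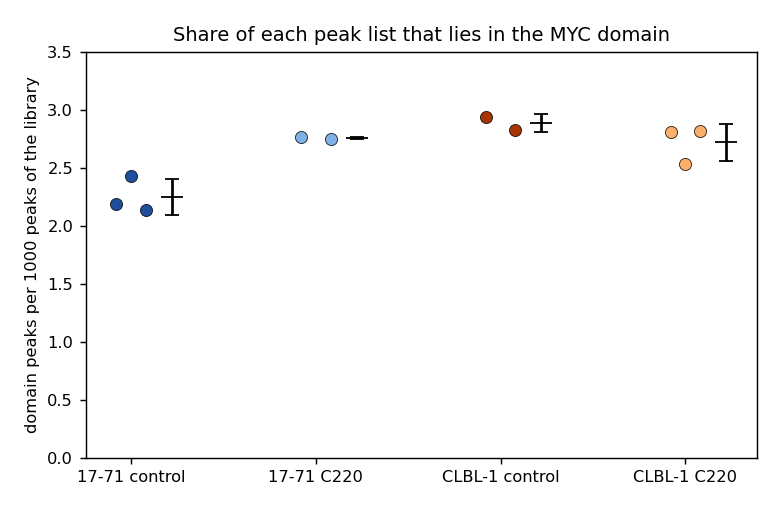
Peaks in the domain per 1000 peaks of the library's list (y axis, from 0), 1 point per library in the 4 groups (x axis), with the mean and SD beside the points. Both treated 17-71 libraries (2.76 and 2.75) lie above the 3 untreated ones (2.13 to 2.43), and the treated CLBL-1 libraries spread from 2.53 to 2.82.

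The other question was how the lines differed. Of the 147 regions, 27 were called in all 5 libraries of 17-71 and none of CLBL-1 (18.4%, against 10.9% of the genome), and 23 in all 5 of CLBL-1 and none of 17-71 (15.6%, against 6.76% of the genome). On the rest of chromosome 13 these shares were 13.9 and 6.41%. Of the 48 regions called in every 17-71 library, 56.2% were confined to that line, against 36.9% of the genome, and of the 53 called in every CLBL-1 library 43.4% were, against 21.9%. The 19 regions called in all 10 libraries made up 12.9% of the domain, against 15.4% of the genome. As the classes use every library, each holds for controls and treated libraries alike.

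The regions of the lines were placed differently along the domain. Below, a region confined to a line is one called in all 5 of its libraries and in none of the other line. None of the 27 regions so confined to 17-71 lay left of MYC, and the first of them was the neighbour at 10.807 kb. With calls in 1 to 4 libraries of 17-71 and none of CLBL-1, 10 regions did lie on the left. Of the 23 confined to CLBL-1, 9 lay on the left and 14 on the right. Of the 31 regions left of MYC, 11 were called in all 5 CLBL-1 libraries and 1 in all 5 libraries of 17-71, the shared neighbour at 2.754 kb. Over the genome 18339 and 17601 of 59420 regions were called in all 5 libraries of CLBL-1 and of 17-71. The CLBL-1 count on the left was near that share, and the 17-71 count was below it. The number of peaks left of MYC was 10, 8, 3, 4 and 7 in B1, B2, B3, B4 and B6, and 14, 14, 18, 16 and 14 in C2 to C6. The lines did not overlap, with a mean of 6.40 ± 2.88 and 15.2 ± 1.79 peaks (SD, n = 5 libraries each). How often this holds for stretches of that length in the genome is not given here. In blocks of 500 kb it was so for 28.4% of 4547. On the right there were 86, 72, 62, 57 and 68 peaks in 17-71 and 56, 52, 58, 53 and 51 in CLBL-1, where the ranges met, B4 with 57 lying below C4 with 58.

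**Figure D3:**
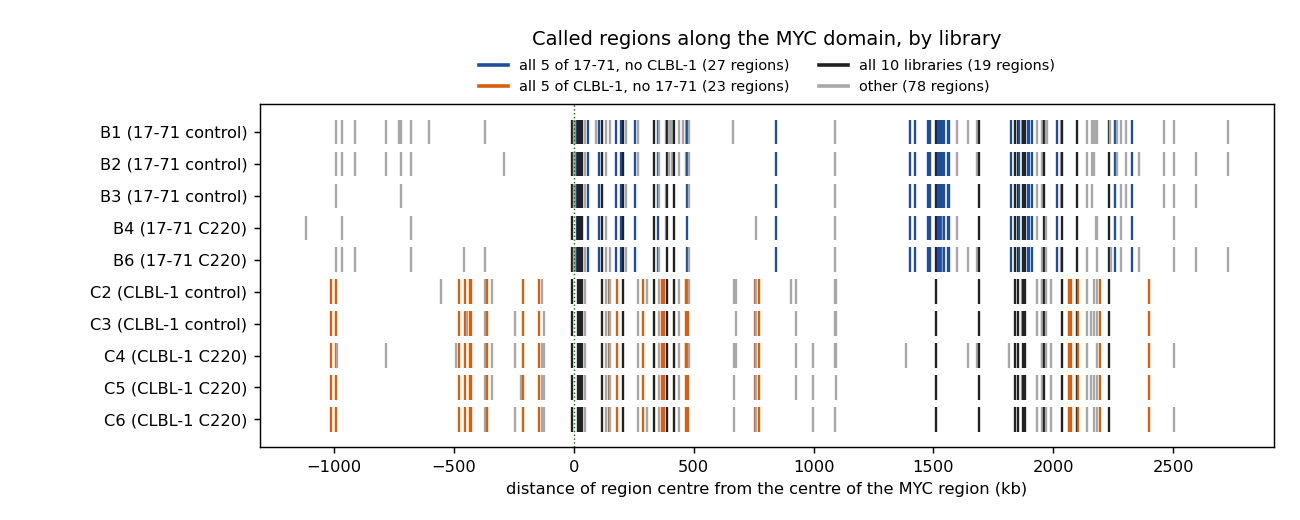
Position of every called region in each of the 10 libraries (y axis), by the distance of its centre from the centre of the MYC region in kb (x axis, dotted line at 0), with colours for regions called in all 5 libraries of 17-71 and none of CLBL-1 (27), in all 5 of CLBL-1 and none of 17-71 (23), called in all 10 libraries (19) and other (78). The 27 regions of the first class all lie right of MYC, and 9 of the second lie left of it.

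In blocks of 500 kb, a division chosen after the data were seen, the peak numbers of the lines separated fully in a pair of places. In the second block, from -0.706 to -0.206 Mb relative to the centre of the MYC region, on its left, the 17-71 libraries had 3, 2, 0, 1 and 3 peaks and the CLBL-1 libraries 9, 9, 10, 10 and 8. All 6 of the regions confined to a line there were confined to CLBL-1. In the sixth block, from 1.29 to 1.79 Mb right, 17-71 had 16, 14, 12, 14 and 16 peaks and CLBL-1 had 2, 2, 5, 2 and 2. All 10 regions confined to a line there were confined to 17-71, and they lay between chr13:26609030-26610033 and chr13:26769588-26772009. In both blocks the lines did not overlap, which was so for 28.4% of 4547 such blocks in the genome. Per 1000 peaks of the list, the second block held 0.0563 ± 0.0392 in 17-71 and 0.369 ± 0.0148 in CLBL-1, and the sixth 0.476 ± 0.122 and 0.103 ± 0.0462 (SD, n = 5). The exact permutation p was 0.00794 for each, the smallest that 5 libraries against 5 can give, and 0.0174 adjusted over the 4547 blocks. The fourth block had the same p, with 0.299 ± 0.0404 in 17-71 and 0.588 ± 0.0587 in CLBL-1. So did the eighth, with 0.151 ± 0.0489 and 0.0564 ± 0.0224, but in both the peak numbers of the lines overlapped. By that test 5 of the 8 blocks differed between the lines, 2 of them higher in 17-71 and 3 lower, against 53.6% of the genome's blocks (29.6% higher and 23.9% lower), so the number is near the background. The third block, which holds MYC, had 21, 18, 16, 13 and 18 peaks in 17-71 and 15, 15, 16, 17 and 16 in CLBL-1, and did not pass (adjusted exact permutation p of 0.0987).

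**Figure D4:**
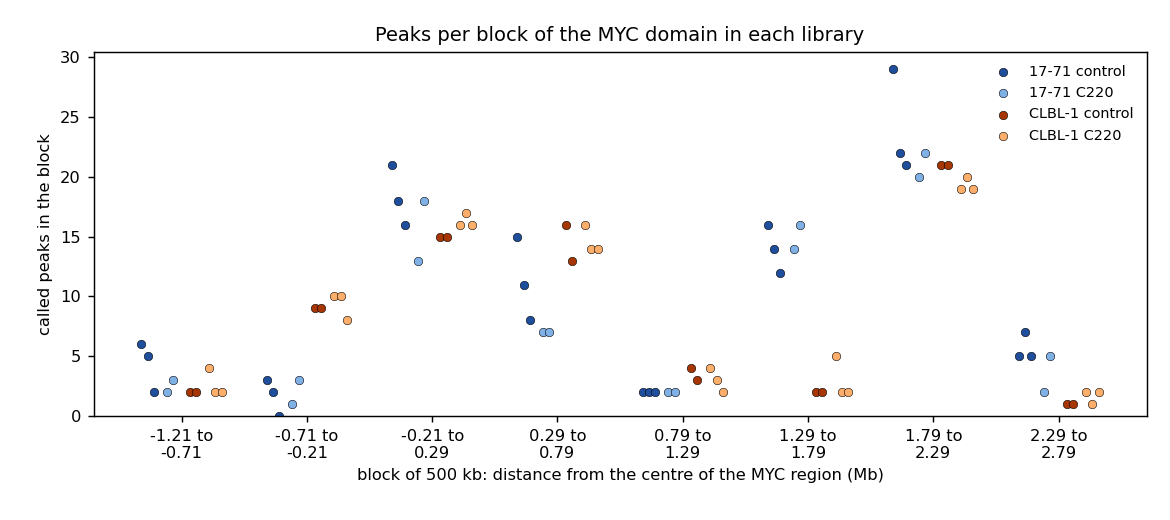
Called peaks per library (y axis) in the 8 blocks of 500 kb, by distance of the block from the centre of the MYC region in Mb (x axis), with 1 point per library coloured by line and treatment. The lines separate fully in the second block (0 to 3 against 8 to 10 peaks) and the sixth (12 to 16 against 2 to 5).

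Within the sixth block, the region with the strongest calls confined to 17-71 was chr13:26732112-26734557, 1524 kb right of MYC. Its fold was 3.05, 2.67 and 2.45 in the controls, 5.01 in B4 and 2.72 in B6, and its rank by −log10 p was between percentile 95.1 and 98.8 of each list. B4 was the highest and also had the shortest peak, 672 bp against 1444 to 2446 bp, and once centred B6 was above the controls too. Close by, chr13:26742246-26743602 reached 6.04, 4.5 and 4.55 in the controls, 5.21 in B4 and 4.57 in B6, with the treated values inside the range of the controls. The same block held a wide region confined to 17-71, chr13:26725814-26729115 (3302 bp), with the low and even fold of 2.47, 2.34 and 2.35 in the controls and 2.57 and 2.50 with C220. Both treated values were above the controls there by a small margin.

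Outside that block, the strongest regions confined to 17-71 were at 469, 1908 and 2255 kb right of MYC. At chr13:25677307-25678785 the fold was 5.17, 3.96 and 4.15 in the controls, 5.27 in B4 and 4.41 in B6. At chr13:27116212-27117768 it was 6.40, 4.52 and 5.06 in the controls, 5.06 in B4 and 4.92 in B6. At chr13:27462626-27463608 it was 6.27, 4.33 and 4.35 in the controls, 5.37 in B4 and 4.35 in B6. Treated and control values of fold overlapped at each of the 3. On the centred scale both treated values were above the controls at the first (0.33 and 0.17 against 0.06, -0.02 and 0.06), with a log2 difference of 0.22 ± 0.117 (SE, adjusted p = 0.399 by limma), and overlapped at the other two. The region of 3499 bp at chr13:25308275-25311773, 100.156 kb right of MYC, was also confined to 17-71, at 3.28, 2.66 and 2.52 in the controls and 3.36 and 2.68 with C220. Over the 27 regions, the median length was 1357 bp and the median percentile of −log10 p ran from 60.8 to 80.7 over the 5 lists, against 48.8 to 73.7 for the 6499 regions of that class in the genome.

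Among the regions confined to CLBL-1, the strongest lay in the second block, chr13:24727893-24729496, 475 kb left of MYC. Its fold was 5.76 and 5.09 in the controls C2 and C3 and 4.95, 4.99 and 4.93 in C4, C5 and C6, and its percentile by −log10 p was 94.1 to 97.1. All 3 treated values were below both controls. Some 427 kb left of MYC, chr13:24776574-24777932 had 6.02 and 4.34 in the controls and 5.02, 4.14 and 4.2 with C220, where the groups overlapped. Neither difference passed in the fit over the genome. On the right, chr13:25581014-25582347 at 373 kb had 5.10 and 4.75 in the controls and 4.51, 4.69 and 5.75 with C220. At 770 kb, chr13:25978529-25979579 was the most even of the 5 regions named here, with 5.42, 5.59, 5.44, 5.4 and 5.67 in C2 to C6. Farthest out, at 2396 kb, chr13:27603888-27605228 had 6.57 and 5.85 in the controls and 6.05, 4.77 and 6.02 with C220. In these 3 the groups overlapped in fold, and at the last the treated values were below both controls once centred. The 23 regions had a median length of 1157 bp and a median percentile of 53.6 to 58.4 over the 5 lists, against 48.4 to 54.1 for the 4019 regions of that class in the genome.

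The 19 regions called in all 10 libraries had 18 members right of MYC and 1 on the left, where all regions of the domain had 115 and 31, the window reaching farther to the right. Ranked by the −log10 p of the weakest of the 10 calls, the first was chr13:27086504-27087421, 1878 kb right of MYC, with 7.29, 5.34 and 5.78 in the 17-71 controls and 6.55 and 4.94 with C220. In CLBL-1 it had 7.13 and 6.75 in the controls and 6.20, 5.79 and 6.59 with C220. The lines overlapped, as did the treatments in 17-71. In CLBL-1 every treated value was below both controls, with a log2 difference of -0.17 ± 0.0884 (SE, adjusted p = 0.876 by limma). The other 4 of the first 5 by this measure were chr13:25593384-25594735, chr13:27303357-27305622, chr13:27045716-27048532 and chr13:27055645-27058807, with mean folds of 4.88, 4.35, 3.81 and 3.29 in 17-71 and 6.15, 5.28, 4.17 and 4.25 in CLBL-1. In the 5 libraries of 17-71 the median percentile of the 19 ran from 60.5 to 83.6, and in CLBL-1 from 60.4 to 68.8, against 69.3 to 84.7 and 74.5 to 78.7 for the 9179 regions called in all libraries of the genome.

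At these 19 regions the height of the peaks was compared between the lines. By limma 11 differed at an adjusted p under 0.05, 5 higher in 17-71 and 6 lower, and this was so for 40.4% of the 9179 regions in the genome (21.3% higher and 19.2% lower). The split depends on the scale. Over the genome the median difference of log2 fold, 17-71 minus CLBL-1, was -0.158, which centring each library removes, and without centring 10 of the 19 passed, 1 higher and 9 lower. Differences below are on the centred log2 scale, as 17-71 minus CLBL-1.

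The difference that stood out was at chr13:25321497-25324549, 113.378 kb right of MYC. Its fold was 2.97, 2.65 and 2.88 in the 17-71 controls and 3.02 and 2.91 with C220, and 6.25 and 6.09 in the CLBL-1 controls and 6.46, 5.97 and 6.17 with C220. The lines did not overlap, while treated and control values overlapped within each line, with means of 2.89 ± 0.142 and 6.19 ± 0.188 (SD, n = 5 each) and a log2 difference of -0.93 ± 0.0696 (SE, adjusted p = 1.27e-06 by limma). The shape differed as well. Calls covered 2424 to 2850 bp in the 17-71 controls and 631 and 782 bp in B4 and B6, against 945 to 1094 bp in CLBL-1. The treated 17-71 calls were thus shorter than all those of CLBL-1, at a fold of 3.02 and 2.91. How far the calls of B4 and B6 overlap those of CLBL-1 is not given here. The part of peak length in the difference was not tested.

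A second region lower in 17-71 was chr13:27080606-27082674, 1872 kb right of MYC. It had 3.74, 3.04 and 3.33 in the 17-71 controls and 3.07 and 2.86 with C220, and 5.27, 4.81, 4.99, 4.41 and 5.11 in C2 to C6. The lines did not overlap, the log2 difference was -0.48 ± 0.0646 (SE, adjusted p = 7.45e-05 by limma), and calls were longer in 17-71 (1769 to 2010 bp) than in CLBL-1 (960 to 1133 bp). Nearer to MYC, at 17.307 kb, chr13:25225426-25226282 had 4.63, 3.27 and 2.98 in the 17-71 controls, 3.83 and 3.89 with C220, and 5.72, 4.48, 5.12, 5.31 and 5.88 in C2 to C6, where in fold B1 alone exceeded the lowest CLBL-1 value. Its log2 difference was -0.34 ± 0.0822 (SE, adjusted p = 0.00527 by limma), but by percentile of −log10 p it did not pass (-14.0 points, adjusted p = 0.110). The other 3 that were lower, with differences of -0.33, -0.21 and -0.19, started at 25409575, 27055645 and 25593384. By percentile of −log10 p the second of these was higher in 17-71, by 7.01 points (adjusted p = 0.204 by limma). The third, with an adjusted p of 0.0439, passed without C3 or C6 but not without any one of the other 8 libraries (adjusted p of 0.0513 to 0.187). At the region from 25409575 the called stretches of the lines shared 18.4% of the shorter one, so its values come largely from neighbouring DNA.

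Of the 5 that were higher in 17-71, the largest difference was at chr13:26715576-26716984, in the block rich in 17-71 regions. It had 6.30, 5.44 and 4.75 in the 17-71 controls and 5.55 and 5.01 with C220, and 3.86, 3.64, 3.63, 3.59 and 4.97 in C2 to C6. In fold, C6 alone reached into the 17-71 range, and the log2 difference was 0.63 ± 0.0842 (SE, adjusted p = 6.77e-05 by limma). The next was 22.483 kb right of MYC, beside the region at 17.307 kb, which went the other way. There chr13:25230602-25231940 had 6.55, 4.55 and 4.41 in the 17-71 controls, 5.73 and 4.68 with C220, and 5.39, 3.38, 4.01, 4.21 and 3.94 in C2 to C6. Its log2 difference was 0.47 ± 0.102 (SE, adjusted p = 0.00256 by limma), which without centring was 0.30 and did not pass (adjusted p = 0.0870). The remaining 3, with differences of 0.27, 0.29 and 0.24, started at 25622111, 26893783 and 25197988, and did not pass without centring either. The last is the neighbour left of MYC, with an adjusted p of 0.0439, which passed without B1 or C6 but not without any one of the other 8 libraries (adjusted p of 0.0641 to 0.110). The region from 26893783 did not pass without C3, B6 or C6, nor that from 27055645 without B2, B4, C3 or C6, nor that from 25409575 without B4 (adjusted p of 0.0535 to 0.138).

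**Figure D5:**
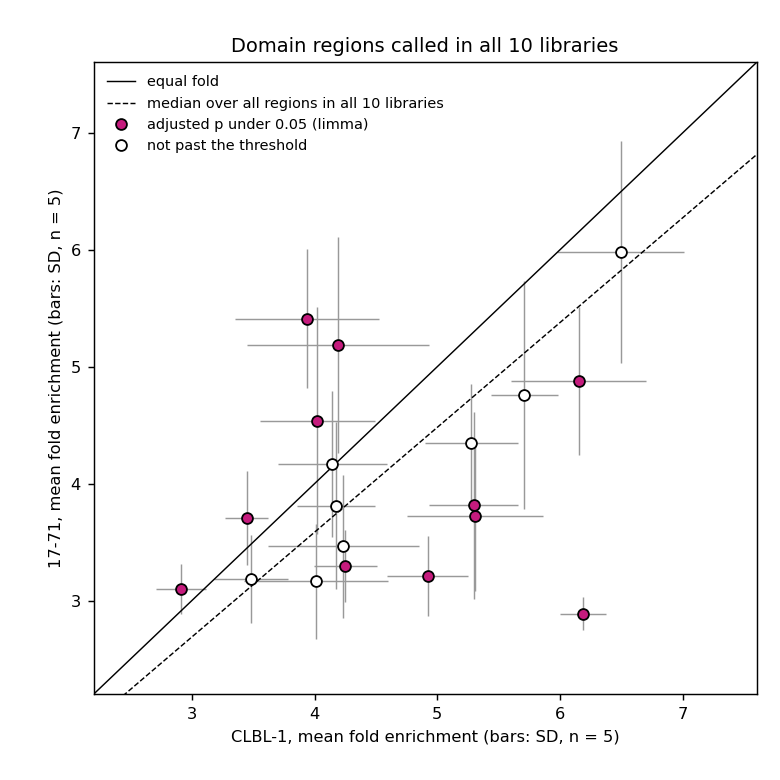
Mean fold enrichment in 17-71 (y axis) against CLBL-1 (x axis) for the 19 regions called in all 10 libraries, with bars for the SD over 5 libraries, the line of equal fold (solid) and the median over the genome (dashed), filled where the adjusted p by limma was under 0.05. The region at 2.89 in 17-71 and 6.19 in CLBL-1 lies farthest from both lines.

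The share of the domain in the lists, taken over both treatments, was 2.45 ± 0.299 peaks per 1000 in 17-71 and 2.79 ± 0.151 in CLBL-1 (SD, n = 5), a difference of -0.334 with an exact permutation p of 0.0556 over all splits of 5 against 5 (0.111 adjusted over the 4 comparisons). Within the controls the difference was -0.636 (exact permutation p of 0.1) and within the C220 libraries 0.0359 (exact permutation p of 1.0), so it did not hold in both. The measure also mattered. By covered bases per 1000 covered bases of the library the difference was -0.153 (exact permutation p of 0.294). For peaks of −log10 p 10 or more it was -0.471, and with lists of 20000 peaks each -0.290. The exact permutation p was 0.0556 in both. Among peaks of at least 4-fold it was -0.779 (exact permutation p of 0.0159). Within 1 Mb of MYC it was -0.669 (exact permutation p of 0.00794). Chromosome 13 outside the domain took 27.8 ± 1.18 peaks per 1000 in 17-71 and 23.0 ± 0.629 in CLBL-1 (SD, n = 5). Set against those peaks, the domain held 87.9 ± 7.83 per 1000 in 17-71 and 121 ± 7.14 in CLBL-1, a difference of -33.4 (exact permutation p of 0.00794, the smallest possible).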

How the data were processed

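The authors aligned the paired reads to CanFam3.1 with Bowtie2 2.2.4, called broad peaks in each library on its own with MACS2 at a −log10 p of at least 5.0, and removed outlier samples by the correlation of read counts per 10 kb. Each deposited peak has a position, a ratio (fold enrichment over the local background, averaged over the peak, so that a long peak can hold a lower fold), a −log10 p, a −log10 q and a display score. The −log10 q and the score were not used. The lists hold no read counts, so depth is unknown, and list length, 22076 to 44378 peaks, stands in for it. The 282896 peaks of all lists were merged over the genome if touching or overlapping. An overlap of 1 bp was enough for a library to have a region. Log2 fold (mean over peaks weighted by length) was median-centred per library and tested with limma 3.58.1 in R 4.3.3, with Benjamini-Hochberg adjustment over all regions tested in the genome. The treatment was tested within each line on regions called in all 5 of its libraries, the line on regions called in all 10 libraries with 4 group means. Shares were compared with two-sided exact permutation tests in Python 3.11.15. For treated against control values, centred log2 fold has the median over the regions tested in that line removed from each library. The steps were tested on simulated data. Regions were named by rule: the MYC region and those within 10 kb, all lost or gained regions, the 5 of each class with the largest smallest −log10 p, those of 3 kb or longer, the first 10 of the line contrast and those with the calls of the MYC region. The regions, this rule and the lists were chosen with earlier results of these data known. Sequence motifs were not analysed, as no genome of this build was used here. Alternatives were cutoffs on −log10 p and fold, lists of equal length, other measures and denominators, a narrower window, other merging, each library left out, and the shared replicate numbers as a block.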

Additional observations from a re-analysis of the deposited data

Results flagged for a closer look

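The treatment effect on the share of the domain in the peak lists went opposite ways in the lines, with an unadjusted p under 0.05 for the difference. The share was higher with C220 by 0.507 peaks per 1000 in 17-71, where 2 of 2 treated libraries were above all 3 controls, and the difference was -0.164 in CLBL-1, where 3 of 3 treated libraries were below both controls. The difference of the effects was 0.671 (two-sided exact permutation p of 0.03 over 100 arrangements, 0.111 adjusted over the 4 comparisons of the share). Over the 10 alternatives that leave out a library it ran from 0.578 to 0.761. Its exact permutation p was 0.0667 without B1, B2 or B3, 0.05 without C2 or C3, and under 0.05 in 5 of the 10. With a library left out there are 60 or 40 arrangements in place of 100, so these p-values are not on one scale. In the settings where p was 0.05 or more, the difference of the effects was 0.613 to 0.761. With lists of 20000 peaks each it was 0.492 (exact permutation p of 0.04), and by covered bases per 1000 covered bases 0.578 (exact permutation p of 0.04). It did not hold for peaks of −log10 p 10 or more (0.295, exact permutation p of 0.42), for peaks of at least 4-fold (0.215, exact permutation p of 0.57), within 1 Mb of MYC (0.137, exact permutation p of 0.31) or per 1000 peaks of the rest of chromosome 13 (14.6, exact permutation p of 0.13). Among peaks of at least 4-fold the effects did not go opposite ways, at 0.354 in 17-71 and 0.140 in CLBL-1. The treated 17-71 lists were also the shorter ones of that line.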

How the results depend on the processing

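The lists carry no depth, and calls depend on the cutoff. Keeping only peaks of −log10 p 10 or more, the difference of the treatment effects on the share was 0.295 (exact permutation p of 0.42), and the regions confined to 17-71 numbered 10, those in all libraries 3, the gains in 17-71 0 and the line calls by limma 1 of 3 tested. Among peaks of at least 4-fold enrichment the difference of the effects was 0.215, the line difference of the share -0.779 and the treatment difference in CLBL-1 0.140, now upward, while regions confined to 17-71 numbered 4, those confined to CLBL-1 12, those in all libraries 2, losses in 17-71 1 and gains there 0. With lists of 20000 peaks each, losses and gains were 0 and 4 in 17-71 and 2 and 0 in CLBL-1. Where peaks had to cover at least 50% of a region, losses in 17-71 numbered 8, gains in CLBL-1 2 and regions in all libraries 7, and the MYC region kept a call in 2 controls and 0 C220 libraries of 17-71. Per 1000 peaks of the rest of chromosome 13 the difference of the effects was 14.6 and the line difference -33.4, and within 1 Mb of MYC they were 0.137 and -0.669. The line difference had an exact permutation p of 0.00794 in both of these settings and of 0.0159 among peaks of at least 4-fold. In the C220 libraries alone the line difference of the share was 0.0359, opposite to that over all libraries. By percentile of −log10 p the region from 27055645 was higher in 17-71, by 7.01 points (adjusted p = 0.204 by limma), and the region from 25225426 no longer passed (-14.0 points, adjusted p = 0.110). The cause of these shifts was not tested, and the counts of regions over the genome in these settings are not given here.

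With each library left out in turn, the share differed by 0.449 to 0.597 for C220 in 17-71, -0.218 to -0.0704 for C220 in CLBL-1, 0.578 to 0.761 between these effects and -0.412 to -0.254 between lines. The line difference had an exact permutation p under 0.05 without B4, B6 or C5. Losses numbered 4 to 13 in 17-71 and 0 to 2 in CLBL-1, and gains 1 to 3 and 1 to 4. Regions confined to 17-71 numbered 27 to 31, those confined to CLBL-1 23 to 26, and those in all libraries 19 to 23. Counts over the genome with a library left out are not given here. Calls by limma numbered 0 to 1 for C220 in 17-71 (1 without B6), 0 in CLBL-1, 0 for the interaction and 8 to 11 for the line.

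The lines share the replicate numbers 2, 3, 4 and 6. Deviations of the libraries with these numbers correlated at -0.0928, 0.0691, 0.0384 and 0.0234 over 9179 regions. With groups of 2 or 3 libraries, these values cannot tell whether a number stands for a shared culture or batch. With the replicate block the line difference of the share was -0.331 (exact permutation p of 0.125) and limma made 9 line calls of 20 tested, the regions from 27055645 and 25593384 no longer among them (adjusted p = 0.0619 and 0.162).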
